A study of Sus scrofa with 10 samples.

Results

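The transcripts present in the ampullary-isthmic junction of sows that had received no semen are described here, from 5 non-inseminated sows out of the 10 sows of the series. These 5 were taken by their label, and the other 5 sows had been inseminated. All 10 were weaned Landrace x Large White hybrids in natural oestrus, without hormone treatment, whose oviducts were removed after ovulation. A segment of whole wall was taken from the junction without flushing the lumen, so that epithelium, connective tissue, muscle, vessels and any fluid or cells in the lumen entered the same RNA. The non-inseminated sows bear the names AI788, AI1061, AI991, AI696 and AI992, as their array labels give them, the letters AI being no sign of insemination. Values below are given in that order. One array was hybridized per sow, and each label names a separate sow. Precision is limited by the count of 5 arrays, and the interval between ovulation and surgery in each sow was not used here.

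The ampullary-isthmic junction is the stretch of the oviduct where fertilization takes place in the pig. Its mucosa is folded and lined by secretory cells, which release glycoproteins into the oviductal fluid, and by ciliated cells, whose beat moves gametes and fluid. Beneath the epithelium lies a connective tissue rich in vessels and immune cells, and outside it a coat of smooth muscle whose contractions also move the contents. The balance of these functions follows oestradiol before ovulation and progesterone after it, so that the days around ovulation are a time of change in the oviduct without any sperm.

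The values are log2 intensities, on which a difference of 1 is 2-fold. A gene was taken as the mean of all features, that is array spots, that carry its symbol, first in each sow and then over the 5 sows, with the SD over sows as its error (n = 5 throughout). Symbols stood beside 10290 of the 45220 features and made up 4560 genes, 2169 of them with a single feature. The remaining 34930 features carried no symbol and were not described, although 15114 of them lay above the reference level, against 7312 of those with a symbol. Of the 453 features of the highest 1% of means, 219 had a symbol. The signal of a probe depends on the probe as well as on its transcript, so that an order of genes by level is an order of array signals and not of numbers of transcripts. For 16 features named ACTA1, the skeletal muscle actin, the means ran from 6.48 to 14.48. For 18 features of the ribosomal protein RPL5 they ran from 14.85 to 15.94.

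The sows did not lie at equal distances from each other. The pair AI788 and AI991 differed by more than 2-fold in 48 of the 4560 genes, and the pair AI696 and AI992 in 79. The 4 pairs across these differed in 184 to 255 genes, and the 4 pairs with AI1061 in 396 to 634. The array of AI1061 stood apart from the other 4, with a correlation of 0.927 to 0.944 with them over all features against 0.967 to 0.986 among the others. It held 322 features more than 4-fold above all 4 other sows, where the other 4 arrays held 14 to 30 and the inseminated sows 25 to 51. In 195 of these 322 the other 4 sows were all at or below the reference level. Several of the counts, spreads and list deviations, though not all of them, are therefore also given without it.

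The reference level was the median of all values of the 5 arrays, 7.09, and the highest value that any feature reached was 16.0. Of the 4560 genes, 3040 (66.7%) had a mean above the reference level, 2530 of them in each of the 5 sows. At the other end 930 genes were above it in no sow, and 1100 were above it in some sows only. Genes of other organs, which served as a guide to background, were above it in 19 of 59 cases. With a level set from those genes of other organs instead, the count was 1347. Without AI1061 it was 3013. In bands of level, 1007 genes lay between the reference level and 8, 1225 between 8 and 10, 529 between 10 and 12, 203 between 12 and 14 and 76 above 14.

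**Figure D1:**
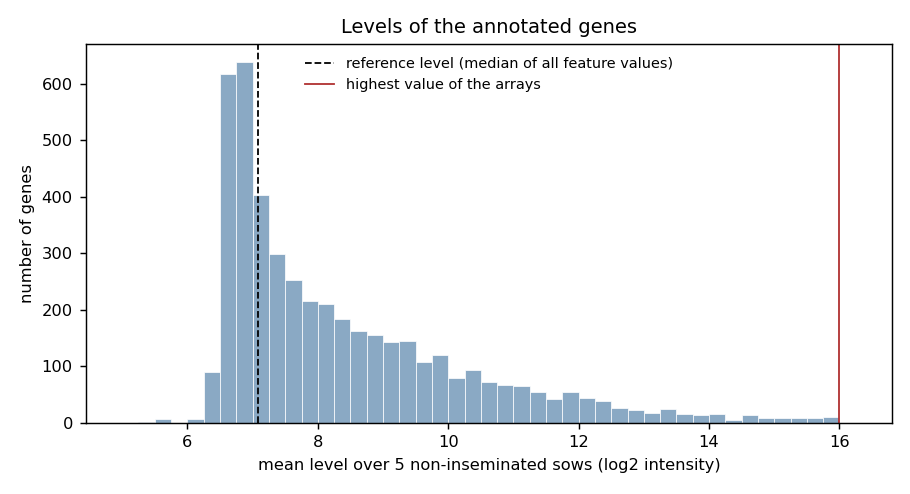
Number of genes (vertical axis) by mean level over the 5 non-inseminated sows (horizontal axis, log2 intensity, bins of 0.25). The dashed line is the reference level of 7.09 and the red line the highest value of the arrays, 16.0. Of 4560 genes, 1520 lie at or below the dashed line and 76 above 14.

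Transcripts of the translation machinery, of the secretory epithelium and of the cytoskeleton gave the highest signals. The ribosomal protein RPL19 (15.96 ± 0.02) stood first and OVGP1, the oviduct-specific glycoprotein that coats the zona pellucida and is released by the secretory cells, second (15.96 ± 0.02). OVGP1 was 15.98, 15.97, 15.96, 15.94 and 15.93 in the 5 sows. All of these readings came within 0.1 of the top of the scale, and neither the rank nor the even level of OVGP1 among sows is therefore settled. In all, 61 genes had a feature that close to the limit in some sow, 35 of them among the 50 genes of highest mean, and RPL19 and OVGP1 were the 2 genes with every feature near it in every sow.

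Of the 50 genes of highest mean, 21 belonged to the list of cytosolic ribosomal proteins and elongation factors, 9 of them among the first 20. Beside these stood FTH1 (15.80 ± 0.07) and FTL (15.75 ± 0.19), the heavy and light chains of the iron store ferritin, and TMSB10 (15.83 ± 0.11) and TMSB4X (15.66 ± 0.10), thymosins that bind actin monomers. SLPI, a protease inhibitor secreted by mucosal epithelia, was at 15.74 ± 0.17 over 7 features. UBB, a gene of ubiquitin, was at 15.63 ± 0.18, and TPT1, a translationally controlled tumour protein, at 15.49 ± 0.08 over 17 features. The reference genes of many assays were also near the top, with GAPDH at 15.39 ± 0.17 and ACTB at 15.09 ± 0.29. For ACTB the sows were at 15.20, 15.18, 15.47, 14.74 and 14.86, and its lowest levels lay in AI696 and AI992.

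Some high ranks rested on a single feature, as in 19 of the first 50 genes. Among them were IFNAR2, a chain of the type I interferon receptor (15.93 ± 0.03), SLC37A4, a glucose-6-phosphate transporter (15.85 ± 0.07), LAMP-1, a lysosomal membrane protein (15.80 ± 0.18), and CNPY3, a chaperone of Toll-like receptors (15.06 ± 0.58). Whether these signals came from the named transcript was not tested. DNAH9, a dynein heavy chain of the ciliary outer arm, also had a single feature, at 15.27 ± 0.50 and rank 26. Of the 50 most abundant genes, 45 were also among the first 50 of the inseminated sows, though not in the same order, and 46 remained without AI1061.

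The lists of cell types and functions were ordered from ribosome to red cells. Medians of member means were 14.61 for 40 ribosomal and elongation factor genes, 13.32 for 19 genes of the secretory epithelium, 12.30 for 11 of smooth muscle, 12.05 for 27 of mitochondrial respiration and 10.67 for 5 of the ciliated epithelium, against 7.72 over all genes. With the brightest feature of each gene in place of the mean over features, smooth muscle (14.57) stood above the secretory epithelium (13.74). All measured members of these lists were above the reference level except 1 of the secretory epithelium, the copper carrier CP (6.77 ± 0.07). Stroma and matrix stood at 10.37 with 13 of 15 members above, endothelium at 7.87 with 11 of 14, leukocytes at 7.20 with 15 of 26 and red cells at 6.75 with 0 of 2. Defining markers of the labelled tissue, OVGP1 among them, were thus present, although just 5 of 28 listed genes of cilia were on the array with a symbol. FOXJ1, the master regulator of cilia, was not among the genes measured here.

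**Figure D2:**
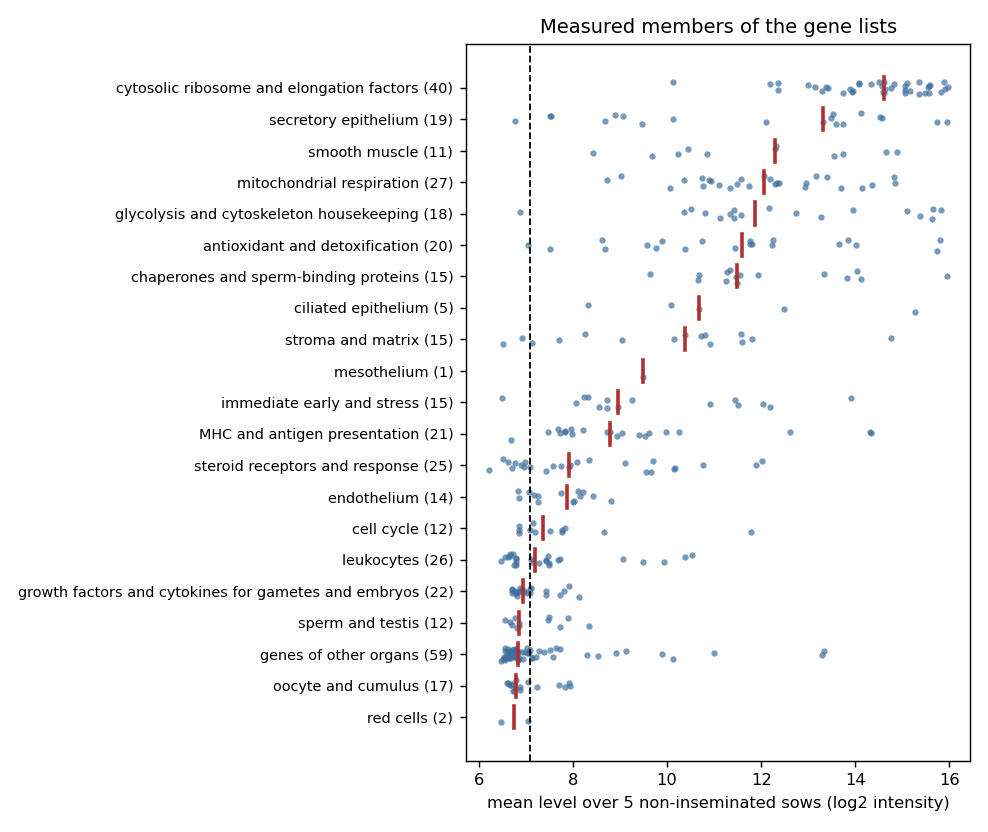
Mean level over the 5 non-inseminated sows (horizontal axis, log2 intensity) of each measured member of the 21 lists, with the number of members in brackets. Points are genes, red bars the medians of the lists and the dashed line the reference level of 7.09. The ribosome list has the highest median (14.61) and red cells the lowest (6.75), with CELA1 and TNNI3 the highest of the genes of other organs.

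Secretory products made up much of the top of the epithelial list. CLU, the extracellular chaperone clusterin, was at 14.57 ± 0.46, DMBT1, a mucosal glycoprotein that binds microbes and sperm, at 14.52 ± 0.60, and the iron-binding LTF at 13.52 ± 0.52. DMBT1 was at 14.29, 13.68, 14.41, 15.06 and 15.15, highest in AI696 and AI992. Junction and surface proteins followed, with CLDN3 at 13.74 ± 0.47, the adhesion molecule EPCAM at 13.58 ± 0.68 and the keratin KRT8 at 13.32 ± 0.88. EPCAM was at 14.23, 12.46, 13.80, 13.52 and 13.90, and all 18 of its features placed AI788 highest and AI1061 lowest. The polymeric immunoglobulin receptor PIGR, which carries IgA across epithelia, lay near the reference level at 7.54 ± 0.11.

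Transcripts of chaperones and of proteins known to bind sperm were above the reference level in 15 of 15 measured genes out of 29 listed, against 66.7% of all genes, with a median of 11.50. ANXA2, an annexin of the apical membrane, was at 14.03 ± 0.37, the cytosolic chaperone HSP90AA1 at 13.83 ± 0.41, HSPB1 at 11.94 ± 0.33 and the mitochondrial HSPD1 at 11.55 ± 0.23. ANXA4, described as a receptor for sperm in cattle, was at 11.23, 9.31, 10.84, 10.75 and 11.15, and AI1061 was the lowest by more than 2-fold. Antioxidant genes were likewise high, at a median of 11.60 with 19 of 20 above. They included the peroxiredoxin PRDX5 (14.03 ± 0.18), the metallothionein MT1A (13.84 ± 0.51), the glutathione transferase GSTO1 (13.65 ± 0.32) and the superoxide dismutase SOD1 (12.23 ± 0.42).

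Among receptors for steroids, the membrane component PGRMC1 gave the highest signal (12.01 ± 0.75), followed by PGRMC2 (10.14 ± 0.19), the progesterone receptor PGR (9.54 ± 0.95) and the oestrogen receptor ESR1 (8.35 ± 0.33). ESR2 (6.89 ± 0.23) and the steroidogenic genes STAR (6.78 ± 0.05) and CYP11A1 lay below the reference level. The 2 features of CYP19A1, also steroidogenic, lay on either side of that level, at 6.84 and 9.01. Binding proteins of insulin-like growth factors ran from IGFBP2 at 11.89 ± 0.49 and IGFBP6 at 10.76 ± 0.43 to IGFBP3 at 6.21 ± 0.06, which was among the 20 lowest genes of all. Of 25 genes of the list 16 were above the reference level.

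Growth factors and cytokines gave low signals, with 9 of 22 above the reference level and a median of 6.93. The chemokine CXCL12 was highest (8.12 ± 0.71), and the prostaglandin synthase PTGES (7.91 ± 0.49) and TGFB1 (7.81 ± 0.09) followed. EGF (6.69 ± 0.10), LIF (6.71 ± 0.07) and the oxytocin receptor OXTR were at or below the reference level in the mean. Signals this low do not separate a scarce transcript from a probe that hybridizes poorly.

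Antigen presentation was represented by 20 of 21 genes above the reference level. The class I heavy chain SLA-1 was at 14.35 ± 0.68 and its partner B2M at 14.31 ± 0.25, whereas the class II chains SLA-DRB1 (9.98 ± 0.67) and SLA-DRA (9.61 ± 0.72) were lower in signal. Genes of class I and class II share sequence with their relatives, and the array's features were not checked for this. Of the leukocyte genes, the granule protease GZMB (10.53 ± 0.38), the receptor kinase KIT of mast cells and pacemaker cells (10.39 ± 0.24), lysozyme LYZ (9.94 ± 1.13), AIF1 of macrophages (9.48 ± 0.42) and the T cell receptor chain CD247 (9.07 ± 0.25) stood above the others. The general leukocyte antigen PTPRC was at 7.13 ± 0.50, and CD8B, PRF1 of cytotoxic cells and MPO of neutrophils were below the reference level, at 6.55, 6.63 and 6.47.

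Genes of gametes were mostly at background, as 5 of 17 genes of oocyte and cumulus and 5 of 12 of sperm and testis were above the reference level, against 66.7% of all genes. The zona pellucida gene ZP3 was at 6.65 ± 0.17, the acrosomal protease ACR at 6.86 ± 0.13 and the protamine PRM1 at 6.85 ± 0.17. The oocyte factors BMP15 (7.94 ± 0.59) and GDF9 (7.82 ± 0.28) had means slightly above it. The 2 features of BMP15 were at 6.73 and 9.15, so that its mean describes neither. These levels were measured in sows that received no semen, and the level of PRM2 in 1 sow is given with the variable genes.

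Among genes of other organs, 40 of 59 were at or below the reference level, such as the pancreatic hormone GCG (6.46 ± 0.10), the pituitary hormone GH1 (6.52 ± 0.17) and the pigment enzyme TYR (6.51 ± 0.07). A few were far above it. The elastase CELA1 was at 13.34 ± 0.88 over 2 features, the cardiac troponin TNNI3 at 13.30 ± 0.44 over 7, chromogranin CHGA at 11.00 ± 0.43 over 3 and the muscle creatine kinase CKM at 10.12 ± 1.05 over 11. All 7 features of TNNI3 were above 12, with means from 12.34 to 14.62, whereas those of CHGA ran from 6.98 to 15.09. CELA1 was at 12.52, 12.98, 12.63, 14.35 and 14.20, so that AI696 and AI992 were above the other 3 sows.

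The 20 genes of lowest mean lay between 5.37 and 6.29. The lowest was CSGALNACT2, an enzyme of chondroitin sulphate synthesis (5.37 ± 0.72), with the clotting factor subunit F13A1 (5.59 ± 0.31) and the GTPase RAB1B (5.59 ± 0.24) next to it. The 2 features of F13A1 had means of 4.51 and 6.67 and the 2 of RAB1B 4.23 and 6.95, so that 1 feature of each made it so low. Levels that lie under those of most features give no order of transcripts. PHYHIP was at 3.74, 6.79, 7.07, 7.48 and 3.61, near the lowest value of the arrays of 3.57 in 2 sows and close to the reference level in the others.

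Some genes were nearly even among the sows. Among the 500 genes of highest mean, and of these the ones without readings near the limit, the endosomal sorting protein VPS28 varied least, at 12.71 ± 0.04, and read 12.76, 12.68, 12.71, 12.72 and 12.67. The mitochondrial ATP8 (11.48 ± 0.06), the kinase CDK9 (13.52 ± 0.07), the dynein light chain DYNLT1 (12.53 ± 0.07), PSME1 of the proteasome activator (11.60 ± 0.08) and the kinase CSNK1A1 (11.56 ± 0.08) were also among the 10 most even genes. The median SD of the genes above the reference level was 0.295, and 0.201 without AI1061. These genes were chosen by a small SD, so that lying below that median follows from the choice. In the inseminated sows, which the choice did not use, the median SD of the genes above the reference level was 0.178. There VPS28 (0.094) and CDK9 (0.108) lay below it. DYNLT1 (0.288), ATP8 (0.265), PSME1 (0.225) and CSNK1A1 (0.202) lay above it.

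The SD over all 4560 genes had a median of 0.248 in the non-inseminated sows and 0.167 in the inseminated sows, and 3259 genes had the larger SD in the non-inseminated sows. This difference was not tested. Without AI1061 the median was 0.178, and 2493 genes had an SD larger than that of the inseminated sows. Among genes above the reference level 88 had an SD over 1, against 26 of them in the inseminated sows. Without AI1061 the count of 88 was 62. These genes were chosen by their mean in the non-inseminated sows. A gene lifted over the level by a single high non-inseminated sow thus entered. A gene lifted in the same way by a single inseminated sow did not. The choice therefore favours the larger count, and 88 against 26 is not an even comparison of the groups. Median SDs were 0.178 at or below the reference level, 0.276 from there to 8, 0.353 from 12 to 14 and 0.187 above 14, where readings press against the limit.

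The 50 genes of largest SD among those above the reference level were chosen by that SD, which ran from 3.34 down to 1.19, and their spread is a description. They were of 2 kinds. In 23 the SD fell to less than 0.5 of its value when a single sow was left out, which was AI1061 in 14, AI696 in 4, AI788 and AI992 in 2 each and AI991 in 1. Of these 23 genes 20 had a single feature, and in 13 the other 4 sows were all at or below the reference level. In the other 27 genes the SD stayed at 0.5 of its value or more without the farthest sow, and 9 of those had a single feature. Some lay close to that cut, such as GSTA1 (1.78, and 0.94 without AI1061) and CXCL14 (1.25, and 0.63 without AI1061).

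**Figure D3:**
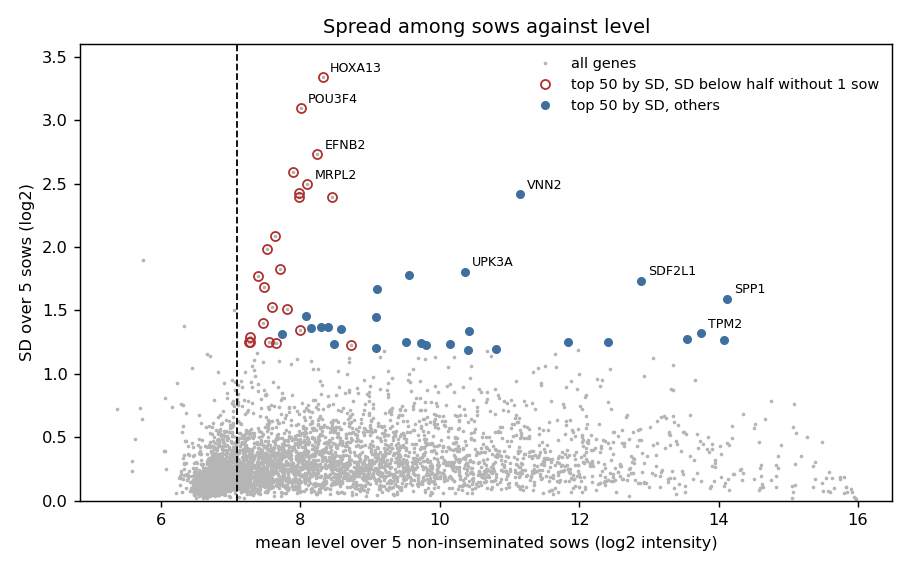
SD over the 5 non-inseminated sows (vertical axis, log2) against mean level (horizontal axis, log2 intensity) for all 4560 genes in grey. Of the 50 genes of largest SD, the 23 whose SD falls below 0.5 of its value without 1 sow (open red circles) lie between the dashed reference level and 9, and the 27 others (filled blue) reach above 14.

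The largest SDs came from readings of a single sow. HOXA13, a homeobox gene of the distal limb and urogenital tract, was at 6.70, 6.98, 6.76, 6.89 and 14.29, and POU3F4, a transcription factor of the inner ear and brain, at 6.60, 6.57, 6.64, 13.54 and 6.67. MRPL2, of the mitochondrial ribosome, was the reverse, with 3.70 in AI788 against 8.80 to 9.88 elsewhere. Each rested on a single feature, so that no second probe of the same gene could be set beside it.

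In AI1061 alone, the ephrin EFNB2 read 13.06 against 6.60 to 7.81 in the others, the protamine PRM2 12.52 against 6.60 to 6.86, SECISBP2L 12.71 against 6.99 to 7.70, PRTG 12.32 against 6.71 to 7.01 and SELPLG, the selectin ligand of leukocytes, 11.36 against 6.56 to 6.79. In the other 4 sows these genes lay below 8. AFP, the fetal plasma protein, had 2 features and both were highest in AI1061, with a mean of 10.57 against 6.56 to 6.67. Of the 322 features high in AI1061, 55 had a symbol and 34 of these belonged to genes with further features. Those further features deviated in AI1061 by a median of 0.38 only, and in 8 genes by more than 2-fold. High features of this array were thus mostly not matched by the other features of the same gene.

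LOC396781, named as an IgG heavy chain in the study, was at 7.47, 10.48, 7.62, 9.09 and 7.30, and all 13 of its features placed AI1061 highest. It was also one of the 2 genes among the 50 whose SD was larger in the inseminated sows, at 1.75 against 1.37. The other was GSTA1, a glutathione transferase of detoxification, at 9.61, 6.73, 9.84, 9.96 and 11.67 (SD 1.78 against 2.55). In GSTA1 AI1061 was below the reference level and AI992 the highest sow.

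**Figure D4:**
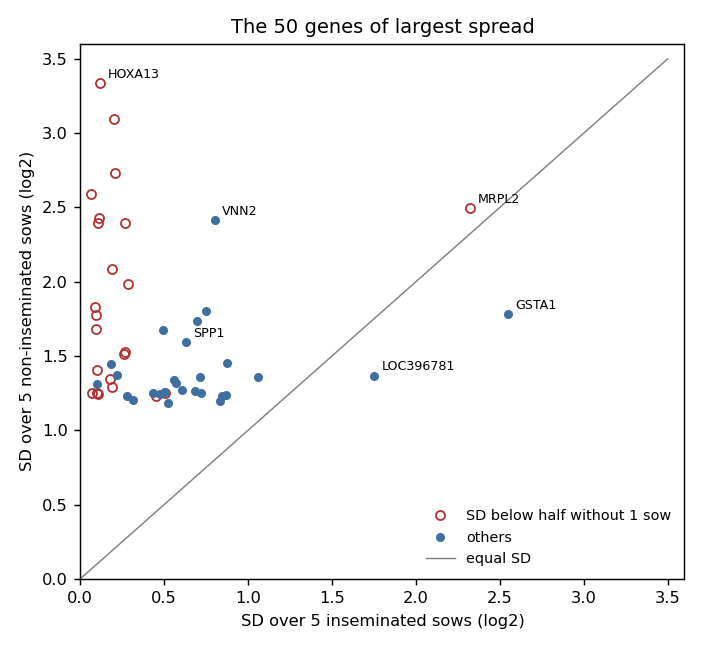
SD over the 5 non-inseminated sows (vertical axis, log2) against SD over the 5 inseminated sows (horizontal axis, log2) for the 50 genes of largest SD in the non-inseminated sows. The line marks equal SD, above which 48 of the 50 lie because they were chosen by the vertical axis, with GSTA1 and LOC396781 below it.

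Of these 50 genes, 9 were among the 50 of largest SD in the inseminated sows, and 30 remained when AI1061 was left out. Over all genes with 2 or more features, the share of the variance between sows that the features of a gene had in common was 55.3% for genes above the reference level and 8.27% for those at or below it, so that spread near background was mostly spread of single features. No such share is read for the 50 genes, since a large SD of the mean over features favours genes whose features move together. Even so, features could differ within them. For Impact, a regulator of translation, 1 feature had an SD of 0.32 and the other of 2.40.

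Many of the 50 genes set AI696 and AI992 apart from AI788 and AI991. Of the 50, 13 had AI696 and AI992 as their 2 highest sows and 16 as their 2 lowest, together 58.0%, against 34.8% of all 3040 genes above the reference level. Since the 50 were chosen by SD, this is a count and not a test. Among the 4 sows without AI1061, both sows of this pair were above or both below the other pair in 80.0% of the 50, against 54.2% of the 3013 genes above the reference level. In these genes AI1061 was at times near one pair and at times near the other.

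Secreted and luminal proteins were among those high in AI696 and AI992. VNN2, a vanin that hydrolyses pantetheine, was at 9.63, 10.67, 8.21, 13.47 and 13.75, a range of 5.54, and both of its features had the same highest and lowest sow. SPP1, the secreted phosphoprotein osteopontin that binds sperm and embryo integrins, was at 12.53, 13.36, 13.05, 15.72 and 15.95. The lower 3 sows did not overlap with AI696 and AI992, whose readings lay in part near the limit and so understate the gap. UPK1B, a tetraspanin of urothelial plaques, was at 7.96, 7.98, 8.29, 10.03 and 11.17, and ABO, the blood group glycosyltransferase, at 7.27, 7.11, 7.55, 9.44 and 10.08.

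Chaperones of the endoplasmic reticulum followed the same sows. SDF2L1, which joins chaperone complexes there, was at 11.43, 12.64, 11.02, 14.83 and 14.50, and its 5 features all placed AI696 highest and AI991 lowest. HSPA5, the main lumenal chaperone of the compartment, was at 9.62, 9.92, 9.91, 12.02 and 11.89. HSP90B1 was at 12.48, 12.72, 12.51, 14.64 and 14.37 over 8 features, and CALR at 8.63, 9.96, 9.03, 10.45 and 10.10. In each of the 4 genes AI696 and AI992 were the 2 highest sows, by a wide gap in all but CALR. Of the 15 chaperones and sperm-binding proteins 9 had these 2 sows highest, against 620 of the 3040 genes above the reference level (20.4%). PRDX4, a peroxiredoxin of the same compartment, read 11.37, 11.87, 11.46, 13.20 and 13.37.

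The opposite order was seen in other genes of the 50, secreted products among them. UPK3A, a uroplakin, was at 12.49, 9.90, 11.99, 8.58 and 8.81. HSD11B2, the enzyme that inactivates glucocorticoids, was at 11.04, 8.02, 10.80, 8.04 and 7.61, and the chemokine CCL28, which attracts plasma cells to mucosae, at 11.97, 9.52, 11.72, 9.04 and 9.86. SAL1, of the lipocalin type, was at 9.99, 7.27, 9.28, 6.92 and 6.91. In each of these AI788 and AI991 were above the other 3 sows, and AI1061 sided with AI696 and AI992.

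Of the 25 genes of steroid receptors and response, 6 had AI696 and AI992 as the 2 highest sows and 5 as the 2 lowest, together 44.0%. The share was 30.6% over all genes and 34.8% over those above the reference level. The pair AI1061 and AI991 also reached 44.0% in this list, against 28.1% over all genes. The list therefore did not single out AI696 and AI992. Single members, chosen after their values were seen, differed between these sows. PGR was at 9.10, 8.63, 8.84, 10.56 and 10.58, higher in AI696 and AI992 by more than 1 than in any of the others. PGRMC1 was the reverse, at 12.31, 12.66, 12.68, 11.21 and 11.21. FKBP5, a co-chaperone of steroid receptors whose gene responds to glucocorticoids and progestins, was at 8.37, 8.95, 8.16, 7.42 and 7.39. ESR1 differed less, at 8.27, 7.92, 8.20, 8.73 and 8.62, and PGRMC2 did not follow the pairs, at 10.37, 9.94, 10.17, 9.95 and 10.26. Hormone levels of the sows were not used here.

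Smooth muscle genes moved together among sows. AI696 and AI992 were the 2 lowest sows in 11 of 11 genes, against 437 of the 3040 genes above the reference level (14.4%), and the mean deviation of the list from the mean over sows was 0.31, 0.53, 0.92, -0.70 and -1.06. Over the 4 sows without AI1061 it was 0.44, 1.06, -0.57 and -0.93. TPM2, a tropomyosin, was at 14.27, 14.93, 14.84, 12.56 and 12.10. CNN1, the calponin of contractile muscle, was at 14.10, 14.57, 14.71, 12.43 and 11.95, and ACTA2, the smooth muscle actin, at 14.76, 14.96, 15.39, 14.52 and 13.66. The intermediate filament DES was at 12.59, 12.75, 13.36, 11.71 and 11.07, and the myosin kinase MYLK at 12.67, 12.88, 13.44, 11.32 and 11.33. In whole wall, fewer cells of a type and less RNA per cell cannot be told apart, and a share of muscle that differs between segments cannot be told from a change of its genes. This holds for the levels of every list.

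Several of the other variable genes moved with the muscle. RGS2, a brake on G protein signals, was at 14.62, 15.27, 15.07, 12.76 and 12.68, PPP1R14A, an inhibitor of myosin phosphatase, at 12.54, 13.44, 13.80, 11.28 and 11.00, and CKM at 10.65, 10.60, 11.33, 9.0 and 9.02. Among matrix genes, POSTN was at 10.34, 11.47, 11.18, 8.93 and 8.80 and SPARCL1 at 11.96, 13.34, 12.70, 10.87 and 10.32, where 7 of 7 features had AI1061 highest and AI992 lowest. MGP, an inhibitor of calcification and the highest matrix gene at rank 42, was at 15.13, 15.10, 15.60, 14.33 and 13.62. The mean deviation of stroma and matrix was -0.05, 0.59, 0.33, -0.24 and -0.64. The secretory epithelium was at -0.03, -0.52, -0.11, 0.35 and 0.30, so that the lists of epithelium and of muscle were not high in the same sows. Over the 4 sows without AI1061 the deviations of stroma and matrix were 0.10, 0.48, -0.09 and -0.49, and those of the secretory epithelium -0.16, -0.24, 0.23 and 0.17.

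**Figure D5:**
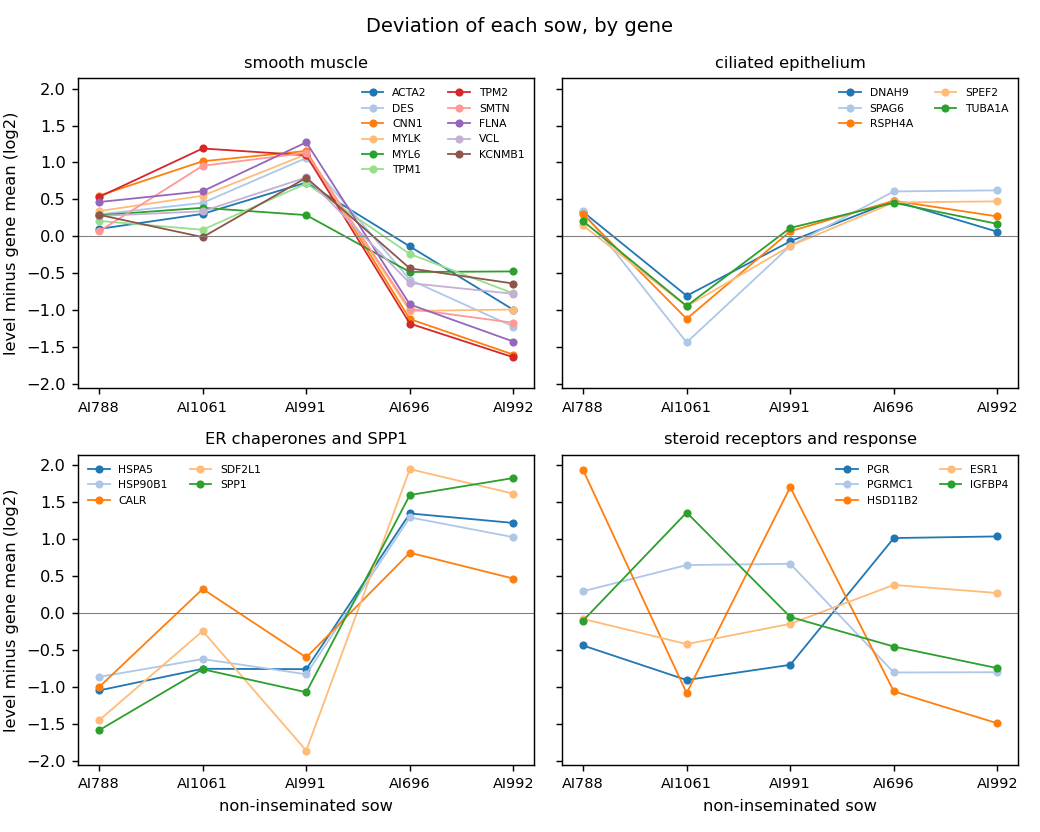
Level of each gene minus its mean over the 5 non-inseminated sows (vertical axis, log2) in each sow (horizontal axis), for smooth muscle, ciliated epithelium, chaperones of the endoplasmic reticulum with SPP1, and 5 genes of steroid action. The chaperones with SPP1 and the genes of steroid action were picked singly and do not stand for whole lists. Lines join the values of a gene and imply no order of the sows. All 11 smooth muscle genes are below 0 in AI696 and AI992, and all 5 genes of cilia are lowest in AI1061.

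The ciliated epithelium list was set apart by AI1061, which was the lowest sow in 5 of 5 genes with a mean deviation of -1.05, while the other 4 sows lay between -0.03 and 0.50. Without AI1061 their deviations were 0.00, -0.29, 0.23 and 0.06. AI1061 was the lowest sow in 1491 of the 3040 genes above the reference level, so that being lowest there was common on this array. DNAH9 was at 15.60, 14.47, 15.21, 15.75 and 15.34, and SPAG6, of the central pair of the axoneme, at 11.01, 9.24, 10.54, 11.28 and 11.30. RSPH4A of the radial spoke was at 8.61, 7.20, 8.38, 8.80 and 8.58. Secretory genes were lowest in AI1061 in 15 of 19 cases, and housekeeping genes in 12 of 18. Genes of antigen presentation were highest there in 14 of 21 cases with a mean deviation of 0.50, and matrix genes in 8 of 15, against 652 of the 3040 genes above the reference level. The part in these values of this array's distance from the others was not tested.

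The list of immediate early and stress genes joins transcripts that appear soon after hormonal or mechanical stimuli with heat shock and stress genes, and 14 of its 15 genes were above the reference level at a median of 8.95. JUN was at 13.91 ± 0.44 and the inhibitor of NF-kappa-B NFKBIA at 12.19 ± 0.40. AI696 was the highest sow in 9 of the 15 genes and the lowest in 2, against 644 and 320 of the 3040 genes above the reference level. NFKBIA was lowest there, at 11.65 against 11.89 to 12.55 in the others. FOS was at 8.02, 8.87, 7.54, 10.73 and 8.44, with AI696 highest on all 4 features. The heat shock genes DNAJB1 (11.32, 10.89, 11.21, 13.04 and 10.79) and HSP70.2 (11.69, 10.39, 11.60, 13.14 and 10.76) were also highest in AI696, by more than 1 over the next sow. The mean deviation of the list in AI696 was 0.54, against -0.34 to 0.17 in the others.

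Of 12 cell cycle genes 8 were above the reference level, the same 66.7% as over all genes, at a median of 7.35 against 7.72, and the cyclin CCND2 (11.79 ± 0.74) was the only one above 9. CDC20, an activator of the anaphase-promoting complex, was at 8.69, 7.50, 8.14, 10.20 and 8.78, and CDK1 at 7.68, 6.86, 7.51, 8.65 and 8.45, both highest in AI696. TOP2A (7.19 ± 0.29) and PLK1 (6.85 ± 0.24) lay near the reference level. Endothelial genes had a median SD of 0.286, close to the 0.295 of all genes above the reference level, with PECAM1 at 8.15 ± 0.25, VWF at 8.11 ± 0.35, CDH5 at 8.21 ± 0.38 and ICAM1 at 8.81 ± 0.52. Features of the first 3 differed in mean, at 6.74 and 9.49 for VWF, 7.23 and 9.19 for CDH5 and 7.06 to 9.62 for PECAM1. KDR, the receptor of vascular endothelial growth factor, was at 7.48, 6.92, 7.42, 10.33 and 7.84, and 1 of its 2 features carried most of the reading of AI696, with an SD of 2.49 against 0.279 for the other.

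As lists, respiration and translation were shifted by small amounts only in any sow. Mean deviations of the 27 mitochondrial genes lay between -0.07 and 0.12 and those of the 40 ribosomal genes between -0.08 and 0.12. The small shift of the ribosomal genes had a common direction in AI992. There 36 of 40 were above their mean and 24 were highest, against 1612 and 706 of the 3040 genes above the reference level. The median SD of mitochondrial genes was 0.246, against 0.248 over all genes, and 22 of the ribosomal genes had readings near the upper limit, where spread is compressed. The mitochondrially encoded COX3 was at 14.14 ± 0.09 and CYTB at 12.95 ± 0.14 over 21 features, and the nuclear COX7A1, of muscle, at 13.75, 13.70, 13.68, 12.78 and 13.07, again lowest in AI696 and AI992. RPS3A was at 15.05 ± 0.02 over 9 features and RPL7 at 15.06 ± 0.07 over 16, and both, like COX3, had readings near the limit.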

How the data were processed

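RNA of whole wall from the ampullary-isthmic junction was hybridized to a porcine Agilent array in a single colour, 1 array per sow, and an RNA integrity number above 7.0 was required per the labels. The authors read the images with GenePix Pro 6.0, subtracted background by the normexp method (offset 10) and brought the arrays to a common distribution by quantile normalization in limma. What they deposited are log2 intensities of 45220 features on 10 arrays, so that the arrays share their distribution and a level is relative to it. They were used as deposited, control spots not being marked among them. The slides and scans of the arrays are not given in the sources used here.

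Symbols came from the platform annotation, updated through RefSeq accessions of Sscrofa11.1, which matched 6055 features and renamed 446. No coordinates are given, since no build is named for the array. Means, SDs and ranks were computed in Python 3.11.15 with numpy 2.4.6 and pandas 2.3.3, and figures drawn with matplotlib 3.10.9. The calculations were tested on simulated data. Nothing was tested between groups. Genes were ranked by mean and, above the reference level, by SD, and shown as the 50 first of each. Genes were named by rule as the 40 highest, the 20 lowest, the 40 of largest SD, the 10 of smallest SD among the 500 highest without readings near the limit, and members of the 21 lists, with all of lists of at most 12 measured members and, of longer lists, the 8 highest, the 3 lowest and the 3 of largest SD. Further genes in the text were chosen after their values were seen. The members and lists were chosen with earlier results of these data known.

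The alternatives tried were the highest-mean feature or the median over features instead of their mean, centring on the median, another quantile normalization, linear intensities, other reference levels, distances, filters and measures of spread, and leaving out each sow.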

Additional observations from a re-analysis of the deposited data

Results flagged for a closer look

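In 43 of the 299 genes named by rule, 1 of the 5 non-inseminated sows lay far from the other 4 by Dixon's criterion, which chance alone meets in about 1 of 20 groups. Many of these genes were named because of their SD, so that the count exceeds what a free choice of genes would give. AI1061 was the far sow in 27 of the 43, with 17 levels higher and 10 lower.

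High in AI1061 were the RNA-binding SECISBP2L (12.71), EFNB2 (13.06), PRM2 (12.52), PRTG (12.32), LOC100512793 (12.25), SELPLG (11.36), ADIG (11.07), AGO1 of the RNA silencing complex (10.98), AFP (10.57), the transporter SLC22A7 (10.50), LARP6 (10.48), the surface antigen THY1 (10.08 against 7.57 to 8.03 in the others), the class I gene SLA-7 (9.97), the serum amyloid component APCS (9.48), the neutrophil protein S100A9 (8.20), the acrosomal ACRV1 (7.50) and the kinase PDPK1 (6.83). All 3 features of THY1 were highest there, with SDs from 0.435 to 2.38.

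Low in AI1061 were RPS20 (15.79), RPL35 (15.64), FTH1 (15.69) and LAMP-1 (15.47), whose other readings lay near the upper limit, and further CLDN3 (12.91), the tubulin TUBA1A (11.54), ANXA4 (9.31), WT1, the single measured gene of the mesothelium list (8.58), RSPH4A (7.20) and TNFAIP6 of the cumulus matrix (6.59). Of 21 lists 3 had AI1061 as the far sow, the mesothelium at a mean deviation of -0.91 from that gene alone, housekeeping at -0.35 and sperm and testis at 0.45, the last with PRM2 and ACRV1 among its members.

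In the other sows, POU3F4 (13.54), DNAJB1 (13.04), KDR (10.33) and PLK1 (7.28) were high in AI696. HOXA13 (14.29), RPL12 (12.61), the calcium-binding SCGN (9.70) and the retinoic acid hydroxylase CYP26A1 (6.94) were high in AI992, where GZMB (9.87) and DCST2 (4.59) were low. KRT79 (10.26) was high and MRPL2 (3.70) low in AI788. TRIM35 (9.58), LIF (6.84) and TYR (6.63) were high and the protease inhibitor TIMP2 (9.86) low in AI991. The far levels of PLK1, LIF, TYR and CYP26A1 stayed within 1 of the reference level.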

How the results depend on the processing

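Of 81 counts and median SDs under an alternative 70 stayed within their limits, as did 193 of 210 list medians and 2818 of 2990 levels of named genes. The limit of a gene level was its own SD over sows, which leaving out 1 of 5 sows cannot exceed. Centring and another normalization change little in arrays that already share their distribution. In each of these settings 0 of 299 gene levels moved, against 129 with the brightest feature, so the total says little about stability. Readings near the upper limit, genes of a single feature and the number of sows limit ranks and spreads. With a gene's brightest feature instead of the average over its features, the 50 most abundant genes shared 33 with the first order and the 50 most variable 30, the genes with an SD over 1 numbered 150, and medians rose to 11.86 for cilia, 14.57 smooth muscle (above the 13.74 of the secretory epithelium), 10.46 mesothelium, 9.47 antigen presentation, 15.67 ribosome, 13.56 respiration, 13.55 housekeeping, 13.12 chaperones, 12.36 antioxidants, 10.78 immediate early genes, 9.01 steroid genes, 7.08 growth factors, 7.01 oocyte and cumulus and 7.03 other organs. With the median over features, 19 genes were near the upper limit and medians were 15.05 for the ribosome and 7.74 for steroid genes. Within 0.5 of the limit lay 94 genes. Genes above the reference level numbered 1639 with that level at the 75th percentile of all values and 1347 with the level from genes of other organs. The most variable 50 shared 22 with a filter at the 75th percentile, 13 by the median absolute deviation, 21 among genes of 2 or more features, and 30 to 43 without a single sow, the lowest without AI1061. Without single sows the endothelium median ran from 7.58 to 7.90, lowest without AI696. The counts of smooth muscle genes lowest in AI696 and AI992 and of genes of cilia lowest in AI1061, both examined after seeing the data, stayed at 11 of 11 and 5 of 5 with another summary of features, centring or normalization. No paired analysis was possible, since each array came from a separate sow and no pairing of sows is given. Spreads and ranks of the 2 groups were set side by side, without a test between them.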

Other observations

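Further genes, chosen after their values were seen, fell with the sow pairs described for the variable genes. SPDEF, a transcription factor of mucus-secreting epithelia, was at 10.58, 12.08, 11.52, 12.70 and 13.13 in AI788, AI1061, AI991, AI696 and AI992. The lysosomal glycosidase AGA was at 12.27, 12.24, 12.23, 14.14 and 14.43, and the peptide hormone CCK at 11.86, 12.96, 12.01, 13.76 and 14.03. DNAJC3, a co-chaperone of the endoplasmic reticulum, was at 9.36, 9.69, 9.17, 11.69 and 11.13. In all 4 genes AI696 and AI992 were the 2 highest sows. PLAU, the urokinase that activates plasminogen, ran the other way, at 12.72, 10.68, 12.08, 10.87 and 10.35.

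A few genes that respond to interferon were likewise chosen after their values were seen. ISG15, a ubiquitin-like modifier, was at 13.37, 11.16, 12.25, 10.97 and 10.49, the antiviral GTPase MX1 at 12.68, 10.25, 10.95, 11.00 and 10.54 over 5 features, and OAS1, a sensor of double-stranded RNA, at 11.22, 9.11, 12.42, 10.59 and 10.68. AI788 and AI991 were the 2 highest sows in ISG15 and OAS1, as for UPK3A, and AI788 was highest in MX1. ISG12(A), near the upper limit in AI788, was at 15.95, 15.04, 15.71, 15.80 and 14.94 and did not follow the pairs.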
